A study of Rattus norvegicus with 13 samples.

Results

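The H3K4me2 peaks of control rat aortic smooth muscle cells (SMC) were set against those of the Myocd-LSD1NF line. H3K4me2 is histone H3 dimethylated at lysine 4, and CUT&Tag maps it with an antibody that brings the Tn5 transposase to the mark. Both lists cover all called peaks, so membership needed no selection: every peak of the control list (42672 peaks) and of the Myocd-LSD1NF list (42727 peaks) was placed. A control peak was kept when at least 1 bp overlapped a Myocd-LSD1NF peak and lost otherwise, and a Myocd-LSD1NF peak with no control partner was gained. Lost and gained therefore mean absent from the other peak list, not absent from the chromatin.

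Control SMC (labelled Ctrl, n = 3 samples) and the Myocd-LSD1NF line (n = 3) make up 6 of the 13 samples of the series, and the Myocd-LSD1 line (n = 3) served for reference. FLAG, the epitope tag of the Myocd-LSD1 fusion, was mapped in 4 further samples. All were cultured aortic SMC lines in serum-containing medium, and no treatment, time or further allele is given. The labels do not spell out NF, say how the lines were derived or say whether a line is a single clone. Each group has 1 peak list, so no difference between lists has a replicate error and none was tested. Nothing says that the 3 samples of a line were separate cultures.

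H3K4me2 lies at promoters and enhancers that are active or held ready, and in SMC it has been linked to the memory of the contractile lineage. LSD1, the product of Kdm1a, is a demethylase that removes methyl groups from lysine 4. Myocardin, the product of Myocd, is a cofactor of serum response factor that switches on contractile genes. Promoters rich in CpG dinucleotides commonly carry H3K4 methylation, while CpG-poor promoters carry it mainly where they are in use.

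The promoters shown next differ in CpG content. Below are the 250 bases before the RefSeq start of 3 genes that lost a peak on the start site in Myocd-LSD1NF cells and of 1 gene that gained one. They were chosen after their values were seen. Capitals mark CpG dinucleotides, and the build is GRCr8 (Meox2 chr6:59583775-59584024, plus strand; Kcnma1 chr15:351675-351924, plus strand). The others were Ccl20 (chr9:91836909-91837158, plus strand) and Rgs5 (chr13:84380827-84381076, plus strand).
Kcnma1: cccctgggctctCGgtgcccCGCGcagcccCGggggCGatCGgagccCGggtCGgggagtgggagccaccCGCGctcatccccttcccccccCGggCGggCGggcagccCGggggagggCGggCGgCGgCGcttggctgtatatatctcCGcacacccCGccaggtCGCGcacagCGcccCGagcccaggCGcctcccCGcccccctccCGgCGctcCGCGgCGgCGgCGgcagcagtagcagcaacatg
Meox2: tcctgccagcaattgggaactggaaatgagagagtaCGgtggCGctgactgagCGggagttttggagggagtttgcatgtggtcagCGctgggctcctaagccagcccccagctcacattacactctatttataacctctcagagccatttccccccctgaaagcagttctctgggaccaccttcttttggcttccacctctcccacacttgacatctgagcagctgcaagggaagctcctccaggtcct
Ccl20: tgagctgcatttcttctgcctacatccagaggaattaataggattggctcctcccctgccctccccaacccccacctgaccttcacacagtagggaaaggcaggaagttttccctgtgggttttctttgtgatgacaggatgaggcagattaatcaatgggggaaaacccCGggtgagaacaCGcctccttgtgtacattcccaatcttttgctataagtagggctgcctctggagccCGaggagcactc
Rgs5: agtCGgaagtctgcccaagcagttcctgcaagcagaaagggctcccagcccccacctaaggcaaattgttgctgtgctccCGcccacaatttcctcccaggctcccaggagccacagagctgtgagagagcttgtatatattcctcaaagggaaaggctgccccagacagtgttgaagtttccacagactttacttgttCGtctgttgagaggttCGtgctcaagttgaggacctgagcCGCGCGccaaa
The Kcnma1 stretch, ahead of the gene of the large-conductance calcium-activated potassium channel, held 33 CpG. The stretch at Meox2, a homeobox gene of mesenchyme, held 4, that at the chemokine gene Ccl20 held 3, and that at Rgs5, a regulator of G protein signalling, held 7. Peak positions below are on rn6, a different build, and were not carried over. The promoter table holds 771 of the 1276 genes that lost and 172 of the 420 that gained promoter mark, under 80% of each, so a comparison of CpG content over these sets would be void and is not given.

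Most of the control landscape was also called in Myocd-LSD1NF cells, and the differences lay among the weakest peaks. Of the control peaks, 8187 were lost (19.2%, exact 95% binomial interval 18.8 to 19.6). Of the Myocd-LSD1NF peaks, 9340 were gained (21.9%, 21.5 to 22.3). These intervals, like those below, cover counting error only. The median lost peak was 342 bp wide with an authors' fold enrichment of 4.77, and the median gained peak was 359 bp wide with a fold of 4.84. Kept peaks were wider, with a median of 635 bp in control and 734 bp in Myocd-LSD1NF cells.

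Strength was read as a percentile of the authors' q-value within a peak's own list, where 100 is the strongest. Lost control peaks had a median percentile of 20.4 (quartiles 8.49 and 36.1) and gained peaks of 18.0 (8.56 and 30.4). In the weakest 10% of the control list 54.5% of peaks were lost (53.0 to 56.0), and in the strongest 10% only 25 of 4268 (0.586%, 0.379 to 0.864). In the weakest 10% of the Myocd-LSD1NF list 66.0% were gained (64.6 to 67.5), and in the strongest 10% none of 4273 were, which allows up to 0.0863%. By this ranking within lists, strong losses were more numerous than strong gains: 947 lost peaks and 441 gained peaks lay in the upper 50% of their lists. The upper 50% began at a −log10 q-value of 10.3 in control but 14.0 in Myocd-LSD1NF cells. A further 733 gained peaks lay between 10.6 and 14.0, so the order depends on where the lists are cut.

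The Myocd-LSD1NF list covered 31.9 Mb against 28.8 Mb in control, and its median −log10 q-value was 14.0 against 10.3. Read depth behind these lists is unknown, so more reads and more mark cannot be told apart. When the Myocd-LSD1NF list was cut to its strongest peaks covering as much sequence as the control list, an alternative chosen after seeing the data, 4499 peaks were gained and 11299 control peaks lost.

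**Figure D1:**
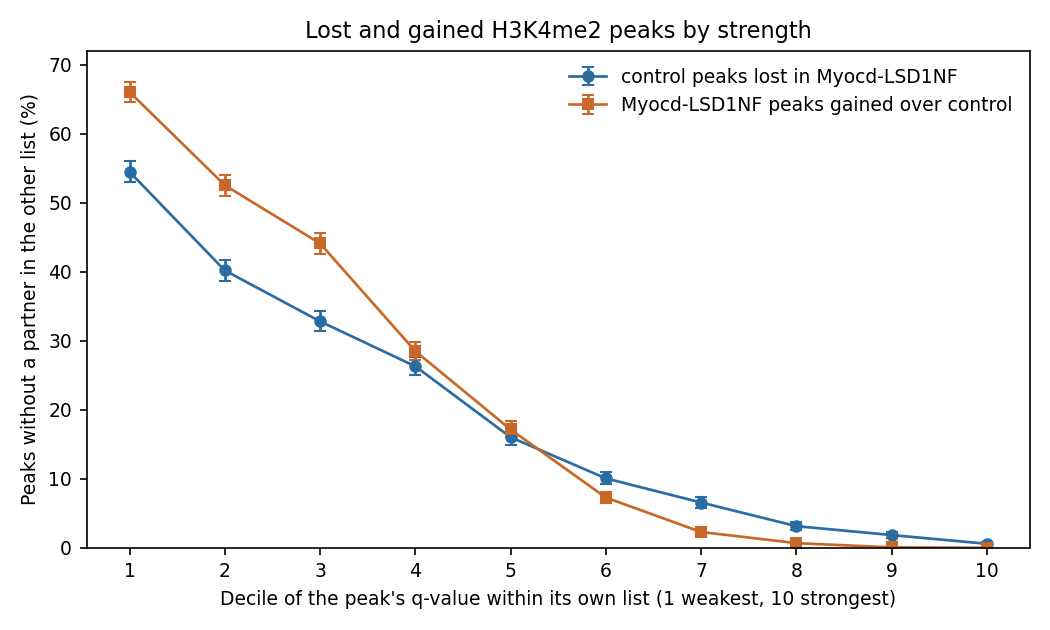
Share of peaks without a partner in the other list (vertical axis, percent, with exact 95% binomial intervals) by decile of the q-value within a peak's own list (horizontal axis, 1 weakest to 10 strongest). Both curves fall from above 50% in the weakest decile to under 1% in the strongest, and the gained curve lies below the lost curve from decile 6 on.

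Losses and gains both grew more frequent with distance from a transcription start site (TSS). Of control peaks lying on a TSS, 6.76% were lost (6.28 to 7.27), against 30.3% (28.2 to 32.4) of those over 100 kb away. For gains the range was wider, from 1.96% (1.70 to 2.25) on a TSS to 38.7% (36.6 to 40.8) over 100 kb away. Introns and distal intergenic sequence held most of the differences. Introns took 33.3% of lost and 39.5% of gained peaks, and distal intergenic sequence 31.4% and 34.7%, by the authors' annotation. Promoters, meaning positions within 3 kb of a TSS, held 29.0% of lost (28.0 to 29.9) and 19.2% of gained peaks (18.4 to 20.03), against 49.8% and 49.0% of kept peaks in the control and Myocd-LSD1NF lists.

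Strength varies with distance too, since peaks on a TSS had a median width of 991 bp in control and those over 100 kb away 428 bp. Among peaks in the upper 50% of their lists, 3.20% of control peaks on a TSS (2.85 to 3.59) and 8.33% of those over 100 kb away (6.05 to 11.1) were lost. In the lower 50%, which held 7240 of the 8187 losses, the lost share was 30.0% on a TSS (27.6 to 32.5), 29.6% up to 1 kb away and 38.2% over 100 kb away (35.6 to 40.9), a narrower relative range than over all peaks. The upper-50% shares of gained peaks were 0.280% (0.181 to 0.413) and 6.19% (4.27 to 8.63). The lower 50% held 8899 of the 9340 gains. There the gained share was 15.2% on a TSS (13.1 to 17.4), 32.5% up to 1 kb away and 49.4% over 100 kb away (46.9 to 51.9). Of the 947 lost peaks in the upper 50%, 55.0% lay at promoters, whereas 23.6% of the 441 gained ones did. Over the autosomes and X, the lost share ran from 16.1% on chromosome 10 to 22.6% on chromosome 15, and the gained share from 16.5% on chromosome 12 to 25.02% on chromosome 15.

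**Figure D2:**
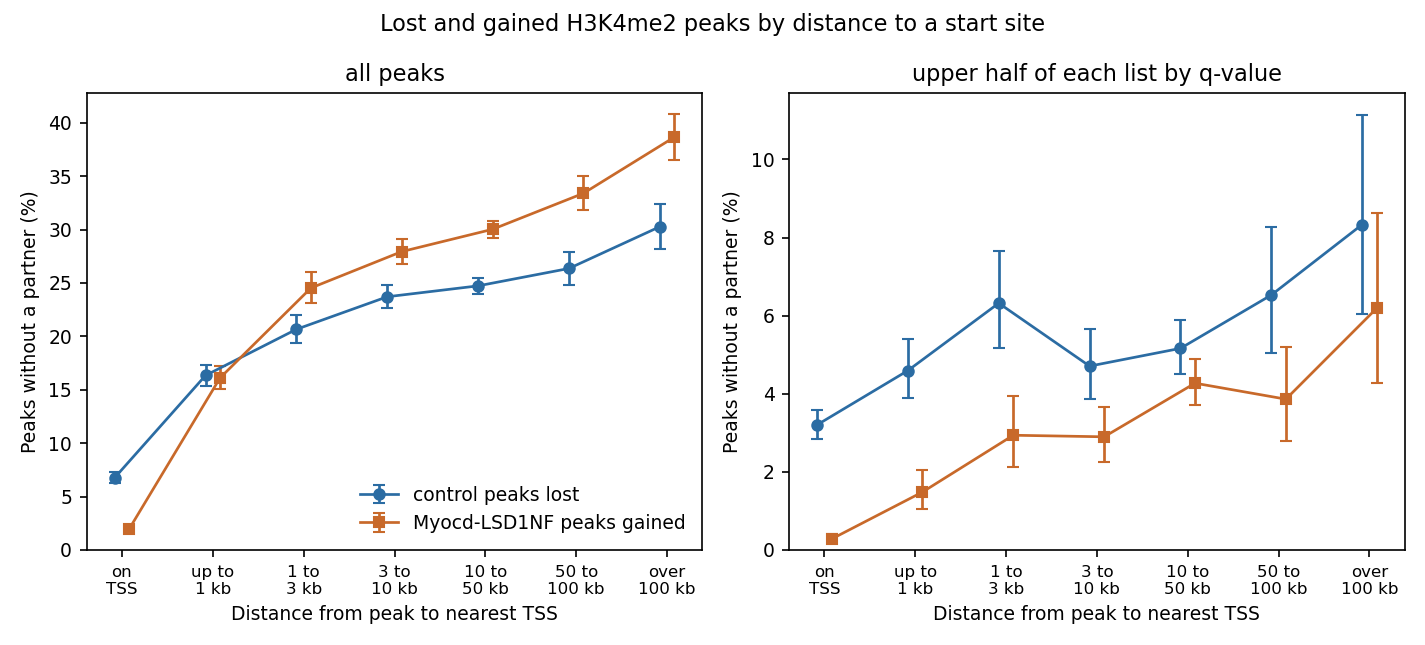
Share of control peaks lost (circles) and of Myocd-LSD1NF peaks gained (squares), in percent with exact 95% binomial intervals, by distance to the nearest TSS, for all peaks (left) and for the upper 50% of each list by q-value (right). On a TSS, 6.76% of control peaks were lost and 1.96% of Myocd-LSD1NF peaks gained; over 100 kb away the shares were 30.3% and 38.7%.

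Promoters lost the mark at more genes than gained it. Genes with a peak no more than 3 kb from one of their TSSs were taken as marked. Of 14845 genes marked in control, 1276 had no promoter peak in Myocd-LSD1NF cells (8.60%, 8.15 to 9.06), and 420 of 13989 marked in Myocd-LSD1NF cells had none in control (3.00%, 2.73 to 3.299). Lost promoters had their strongest control peak on a TSS in 41.6% of cases, whereas 51.2% of the gained ones had theirs over 1 kb from it. Gained promoter peaks were weak, with a median percentile of 20.9 against 35.4 for lost ones. Weak marks went more often: of 2390 genes whose best control peak was in the lower 50%, 894 lost the mark (37.4%), and 379 of 2033 such genes of Myocd-LSD1NF cells had gained it (18.6%). In the upper 50% of the lists, 382 of 12455 control-marked genes lost the mark (3.07%) and 41 of 11956 marked in Myocd-LSD1NF cells gained it (0.343%). With the Myocd-LSD1NF list cut to the covered length of the control list, 237 genes gained the mark and 1644 lost it.

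The 10 strongest promoters lost in Myocd-LSD1NF cells had control peaks at percentiles 92.5 to 98.1. Fam159b headed them, with a control peak of 854 bp (chromosome 2, 34962729 to 34963582) at percentile 98.1 of its list and a fold enrichment of 18.4, 2015 bp inside the gene. Rasgef1b, which encodes an exchange factor for Ras-family proteins, lost peaks at both of its marked start sites, at percentiles 96.7 (chromosome 14, 11993728 to 11994571) and 43.1. Slc24a4, a sodium, potassium and calcium exchanger gene, lost a peak of 1465 bp on its TSS (chromosome 6, 126017862 to 126019326), at percentile 96.0 with a fold of 12.7. That gene also had no promoter peak in Myocd-LSD1 cells, whereas the other 9 strongest losses had one, at Atp8a1 only at another start.

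Meox2 lost a peak of 1238 bp on its TSS (chromosome 6, 56625375 to 56626612), at percentile 95.7 with a fold of 10.6; its promoter is among those printed above. The nuclear receptor gene Nr5a2 lost a TSS peak of 1022 bp (chromosome 13, 53858922 to 53859943) at percentile 95.1. In the authors' deposited table, which compares the Myocd-LSD1 and Myocd-LSD1NF lines by replicates, the site there averaged 7.45 on the log2 scale for Myocd-LSD1 against 0.67 for Myocd-LSD1NF (difference 6.78, FDR 2.63e-20). Control cells are not in that comparison, and its Myocd-LSD1NF samples are those in which the peak was not called. Here and below, its values are therefore no separate check of a loss or gain against control. Fam181b (percentile 94.2), the glycosyltransferase gene B3gnt7 (93.5), the phospholipid flippase gene Atp8a1 (92.7) and Nrtn (92.5), which encodes the GDNF-family ligand neurturin, completed the strongest losses together with Dlx5 (93.3), described below. Sites at Nrtn, Rasgef1b and B3gnt7 were higher for Myocd-LSD1 than for Myocd-LSD1NF by 5.75, 4.12 and 3.92 on the log2 scale in the authors' deposited table.

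SMC contractile promoters were nearly all kept. Of 41 list members marked in control, 3 lost the mark and 38 kept it, a lost share of 7.32%, close to that of all genes. None of the 35 members whose best control peak was in the upper 50% lost all promoter mark, close to the 3.07% of all such genes. Synpo2, an actin-bundling protein gene, was one of these and lost its TSS peak (percentile 64.8), while a peak 1.40 kb inside the gene was kept (89.4 in control, 74.3 in Myocd-LSD1NF cells). The 3 losses were among 6 lower-50% members (50% against 37.4% of all such genes). They were Mustn1, a small musculoskeletal nuclear protein gene (percentile 24.99), Filip1l (3.33) and the small heat shock protein gene Hspb7 (0.480), all weak in control. Aoc3, which encodes a vascular amine oxidase, gained a peak of 727 bp on its TSS at percentile 28.7. With promoters narrowed to 1 kb, Mustn1 alone was lost and Aoc3 and the LIM protein gene Csrp1 were gained.

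The defining SMC genes kept their promoter marks. Acta2, smooth muscle actin, had a TSS peak at percentile 92.0 in control (chromosome 1, 252550374 to 252550788) and 88.7 in Myocd-LSD1NF cells (252550326 to 252550833). A peak 2514 bp inside the gene was kept as well, and Myocd-LSD1NF cells had a further weak peak between the pair at percentile 24.8. Tagln, transgelin, had 3 control promoter peaks of 1312, 604 and 475 bp, which a single Myocd-LSD1NF peak of 3078 bp overlapped (chromosome 8, 50225780 to 50228857). Its strongest percentile was 72.2 in control and 89.6 in Myocd-LSD1NF cells. Cnn1, calponin, kept peaks on its TSS and 590 bp inside the gene, at percentiles 58.7 and 69.7 in control and 71.5 and 76.7 in Myocd-LSD1NF cells.

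Myocd, Myh11 and Kdm1a were also marked in both lists. The control peak of 1800 bp at Myocd (percentile 73.4) was met by Myocd-LSD1NF peaks of 1040 bp on the TSS and 401 bp upstream, at percentiles 81.2 and 82.3, and a further one of 575 bp inside the gene was gained (34.4). Myh11, smooth muscle myosin heavy chain, had only a weak peak in each list, at percentiles 11.5 and 9.71. At Kdm1a, the TSS peak stood at percentile 20.8 in control and 53.1 in Myocd-LSD1NF cells, and a weak control peak 1540 bp inside the gene (7.66) was lost. Among 37 marked SMC regulators, Nkx2-3, a homeobox gene, lost a weak peak 2263 bp inside the gene (percentile 34.9) and no member gained one. With promoters narrowed to 1 kb, no regulator was lost and Foxc2, Gata6 and Tbx18, all transcription factor genes, were gained.

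Counted over all annotated peaks, contractile genes stood near the shares of the whole lists. Of 233 control peaks that the authors annotated to contractile genes, 45 were lost (19.3%), and of 233 Myocd-LSD1NF peaks 50 were gained (21.5%), near the 19.2% and 21.9% of all peaks. The strongest distal loss at a contractile gene was in an intron of Synpo2. That control peak (chromosome 2, 227358434 to 227359024) stood at percentile 91.3 with a fold of 9.63 and had no Myocd-LSD1 partner either. Regulators lost 54 of 238 peaks (22.7%) and gained 54 of 242 (22.3%).

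Skeletal and cardiac muscle genes turned over in both directions, all at weak peaks. Of 14 members marked in control, 6 lost the mark (42.9% against 8.60% of all genes), and 3 of 11 marked in Myocd-LSD1NF cells gained it (27.3% against 3.00%). Losses were at Myh3, embryonic myosin heavy chain (percentile 44.0), the sarcomeric actinin gene Actn2 (37.8), the calcium release channel gene Ryr1 (13.5) and Tnni1, slow troponin I (13.5). The cardiac homeobox gene Nkx2-5 (5.62) and skeletal actin, Acta1 (2.11), made up the rest. Gains were at leiomodin 3, Lmod3 (20.9), cardiac troponin T, Tnnt2 (12.1), and fast troponin C, Tnnc2 (11.2). None of these 9 genes had a promoter peak in Myocd-LSD1 cells. Among genes whose best peak was in the lower 50%, 6 of 8 list members were lost against 37.4% of all such genes, and 3 of 6 were gained against 18.6%. None of the 6 members with a control peak in the upper 50% lost it, and within 1 kb of a TSS 3 of 9 marked members were lost.

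Osteogenic and chondrogenic genes lost the mark at 7 of 25 control-marked members (28.0% against 8.60% of all genes) and gained it at 2 of 20 (10% against 3.00%). Unlike the muscle genes, 4 of the 7 had a control peak in the upper 50%, of 22 such members (18.2% against 3.07% of all genes with such a peak). Dlx5, an osteoblast homeobox gene, lost a TSS peak of 780 bp (chromosome 4, 32391356 to 32392135) at percentile 93.3 with a fold of 15.5. Its neighbour Dlx6 lost a peak at percentile 65.7, so the 2 peaks, 17.5 kb apart, went together. Sox6, a chondrocyte factor gene, lost both of its promoter peaks (percentiles 64.8 and 19.1), and Runx3, a Runt factor gene, lost 1 at 57.4. Alpl, Msx2 and Hapln1 were the other losses, and Ibsp and Dlx3 the gains. The Dlx5 site was higher for Myocd-LSD1 than for Myocd-LSD1NF by 2.23 on the log2 scale in the authors' deposited table (FDR 0.0267). The Sox6 site stood at 3.74 against the lowest Myocd-LSD1NF value that the authors' deposited table holds, so no size is given.

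Homeobox and T-box genes of development outside the HOX clusters lost the mark at 10 of 38 members (26.3% against 8.60% of all genes) and gained it at none of 28. By strength, 5 of 27 upper-50% members (18.5% against 3.07% of all such genes) and 5 of 11 lower-50% members (45.5% against 37.4%) were lost. Meox2 led them, and the other strong losses included Nkx2-2 (3 control peaks, the strongest at percentile 78.2), Lhx9 (2 peaks, 76.5) and Tbx3 (68.2). Alx4, Barx1, Irx1, Lmx1b and Nkx6-1 were weaker losses. Counting all annotated peaks, these genes lost 45 of 123 control peaks (36.6%), the largest share of the 21 lists. HOX genes lost the mark at Hoxa5, Hoxa11, Hoxb13, Hoxc10 and Hoxc13 (5 of 31, 16.1% against 8.60% of all genes), none from the upper 50%, and gained it nowhere.

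Among signalling genes, those of the WNT pathway lost the mark at 8 of 50 members (16.0% against 8.60% of all genes) with no gain in 42 (3.00% of all genes gained it). Of these 8, 3 were among 36 upper-50% members (8.33% against 3.07%) and 5 among 14 lower-50% members (35.7% against 37.4%). They included Rspo3, a WNT enhancer (2 peaks, percentiles 69.3 and 65.5), the antagonists Dkk1 (2 peaks, 58.0 and 56.3) and Dkk2 (46.8), the ligand Wnt10a (53.8) and the receptor Fzd7 (44.0). TGF-beta and BMP genes lost it at 2 of 43, a share of 4.65% below the 8.60% of all genes, namely the ligand Bmp7 (62.8) and the receptor Bmpr1b (50.4). In the authors' deposited table, Bmp7 and both Rspo3 sites were higher for Myocd-LSD1 than for Myocd-LSD1NF, by 2.97, 3.27 and 3.57 on the log2 scale. Axon guidance genes lost it at 5 of 36 (13.9% against 8.60%), of which only the semaphorin receptor gene Plxna4 (76.7) was strong. That was 1 of 31 upper-50% members (3.23%, near the 3.07% of all such genes). The rest were 4 of 5 lower-50% members, where 37.4% of all such genes were lost.

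Genes for vascular channels and receptors lost the mark at 10 of 43 members (23.3% against 8.60% of all genes) and gained it at 2 of 35 (5.71% against 3.00%). Of the losses, 6 were among 8 lower-50% members, where 37.4% of all such genes were lost, and 4 among 35 upper-50% members (11.4% against 3.07%). Kcnma1 lost a TSS peak at percentile 54.8 (chromosome 15, 343523 to 344335, 813 bp) and a weak one 699 bp inside the gene (8.18), although its promoter is the most CpG-rich of those printed. Abcc9, the sulfonylurea receptor subunit of ATP-sensitive channels (56.9), and Adrb1, an adrenergic receptor gene (52.3), also lost theirs. At Kcnma1 the authors' deposited table held 4.87 in Myocd-LSD1 cells against the lowest Myocd-LSD1NF value, so no size is given. Rgs5 moved the other way, gaining a peak of 1379 bp on its TSS (chromosome 13, 87966237 to 87967615) at percentile 46.9 with a fold of 4.80, and another of 626 bp at 18.1. Myocd-LSD1 cells had no peak there, and the authors' deposited table gave 5.29 in Myocd-LSD1NF cells against the lowest Myocd-LSD1 value (FDR 4.28e-06).

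Inflammatory and interferon genes lost the mark at 10 of 37 members (27.0% against 8.60% of all genes) and gained it at none of 27. Of the losses, 8 were among 13 lower-50% members (61.5% against 37.4% of all such genes) and 2 among 24 upper-50% members (8.33% against 3.07%). The highest was Il33, an alarmin cytokine gene (percentile 66.6), followed by the interferon-induced Ifit3 (50.2), the colony-stimulating factor genes Csf3 (39.3) and Csf2 (31.4), and Ccl20 (37.2). Ccl5, Cxcl2, Vcam1, Nos2 and Isg15 were the others, and 8 of the 10 had no promoter peak in Myocd-LSD1 cells. Extracellular matrix genes lost it at 3 of 45, a share of 6.67% below the 8.60% of all genes, namely Mmp2, gelatinase A (2 peaks, 61.9 and 9.29), Fbn2, fibrillin 2 (59.6), and Col6a3, a collagen VI chain gene (4.00).

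Markers of other cell types the cultures could hold were checked with the same counts. Over all genes 8.60% lost and 3.00% gained the mark, and 3.07% of upper-50% and 37.4% of lower-50% genes lost it. Endothelial genes were marked at 13 of 24 members in control and 8 in Myocd-LSD1NF cells. The 5 losses (38.5%) were Sox17 (percentile 78.8), Prox1 (67.5), Kdr (53.3), Sox7 (45.6) and Selp (11.3). Of these, 3 were among 9 upper-50% and 2 among 4 lower-50% members. Within 1 kb of a TSS, Kdr and Sox7 were the endothelial losses. Macrophage and leukocyte genes were marked at 9 of 20 and 6, with losses at Lcp1 (78.8), Ikzf1, Cd74 and Coro1a (44.4%) and a gain at Cd3e (16.7%). The losses were 1 of 4 upper-50% and 3 of 5 lower-50% members. Fibroblast genes were marked at 18 of 25 and 16, with losses at Dpp4 (74.3), C3 (55.9) and Has1 (16.7%) and a gain at Clec3b (6.25%). The losses were 2 of 13 upper-50% and 1 of 5 lower-50% members. Neural and neural crest genes lost the mark at 9 of 26 (34.6% against 8.60% of all genes), led by the synaptotagmin gene Syt1 (80.1), Zic2 (78.9) and Tfap2b (74.9), and gained it at Rbfox3 (5.56%). Of the 9 losses, 3 were among 18 upper-50% and 6 among 8 lower-50% members. Pluripotency genes lost it at Esrrb and Lin28b, 2 of 5 (40%), but at none of 3 within 1 kb. Contractile genes were marked at 41 of 45 members in control and 39 in Myocd-LSD1NF cells. Whether other cells contributed to the losses was not tested.

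Genes that every cell uses kept their promoter mark within 3 kb. None of 41 cell cycle, 27 housekeeping, 28 H3K4 methylation machinery and 24 immediate early genes driven by serum response factor lost or gained promoter mark. Most were upper-50% genes in control, namely 38, 24, 27 and 23 of them. Among all upper-50% genes only 3.07% lost and 0.343% gained the mark, so lists of this size would hold few changes at those shares. Whether these lists differ from other strong promoters was not tested. Within 1 kb of a TSS, the tubulin gene Tubb5 and the early growth response gene Egr4 were lost, and Eef2, elongation factor 2, and the H3K4 demethylase gene Kdm5b were gained. Strength differed between lists, but the median percentile of a list did not order the lost shares. The median control percentile of marked members was 82.4 for cell cycle and 82.0 for housekeeping genes, against 40.9 for striated muscle and 34.2 for macrophage genes, while pluripotency genes had the highest (88.02) with 40% lost and the H3K4 machinery 77.96 with none lost. It was 73.6 for the homeobox and T-box list and 78.7 over all marked genes. Within the pluripotency list, losses did go with strength. Both were among the 2 lower-50% members, and none of the 3 upper-50% members lost the mark. Of all lower-50% genes 37.4% lost it. Over all 21 lists, 92 of 618 distinct control-marked genes lost the mark (14.9% against 8.60% of all genes). Of 538 marked in Myocd-LSD1NF cells, 12 gained it (2.23% against 3.00%). The listed genes as a whole thus lost the mark more often than all genes.

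**Figure D3:**
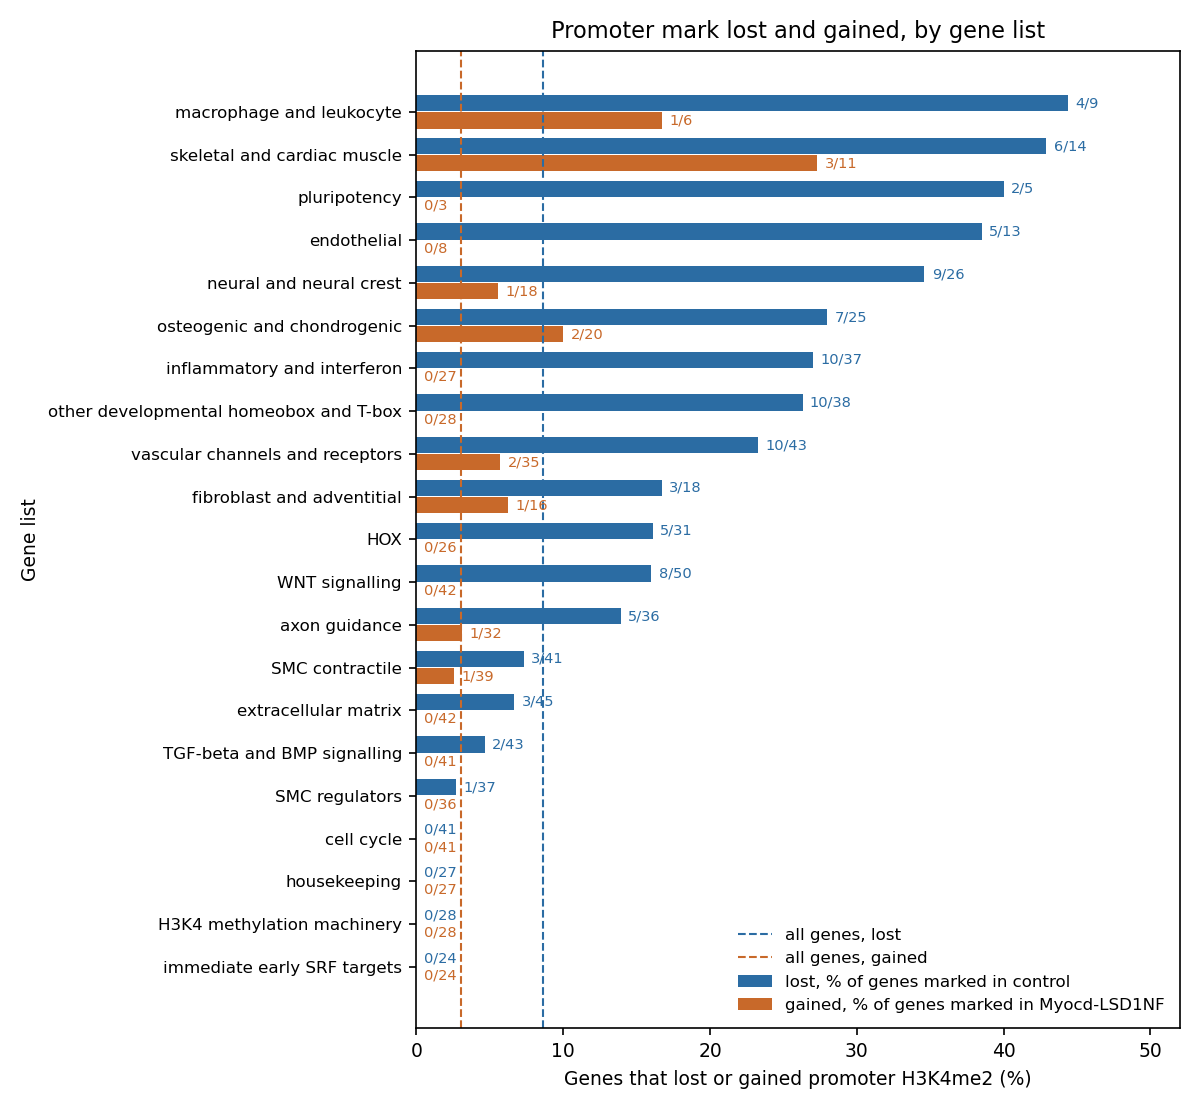
Share of genes in each list that lost (upper bars, of genes marked in control) or gained promoter H3K4me2 (lower bars, of genes marked in Myocd-LSD1NF cells), in percent, with counts beside the bars and dashed lines at the shares over all genes (8.60% lost, 3.00% gained). Losses exceed the all-gene share in 13 of the lists, and cell cycle, housekeeping, H3K4 machinery and immediate early lists have none in either direction.

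Gained promoters were fewer, and several of the leading peaks had a control partner beyond the 3 kb limit. At Clcf1, Abhd16b, RT1-T24-4 and Kcnt1, 4 of the 10 with the strongest Myocd-LSD1NF peak, that peak lay 2300 to 2970 bp from the start and overlapped a control peak that lay outside the 3 kb window. Kcnt1 also gained a weak peak 719 bp inside the gene (percentile 6.62) with no control partner. Requiring the promoter peaks themselves to have no partner left 401 gained and 1267 lost genes. Ext1, which encodes a heparan sulfate polymerase, gained peaks of 475 bp (chromosome 7, 92879041 to 92879515, percentile 82.9) and 346 bp. Palm3 (percentile 69.1), the RNA-binding splicing factor gene Celf2 (62.1) and Kiss1, which encodes kisspeptin (61.4), gained peaks near their starts. Rimklb, an amino acid ligase gene (63.1), and Hpd, an enzyme of tyrosine breakdown (61.6), gained peaks on their starts. All 6 of these genes had a promoter peak in Myocd-LSD1 cells too.

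Beyond 3 kb, Synpo2 was the contractile gene among the 8 strongest losses, and no contractile gene was among the 8 strongest gains. Lost distal peaks were led by 1 in an exon annotated to Ass1, an enzyme of arginine synthesis (chromosome 3, 10385020 to 10385898, percentile 92.5, fold 12.8), then by Synpo2, Anp32e (91.2), Usp18 (90.6), Zar1l (89.9), Yipf5 (89.3), LOC102551836 (89.3) and Spag1 (87.8). Myocd-LSD1 cells had the peak at 6 of these 8 and lacked those at Synpo2 and Usp18. Gained distal peaks were lower in their list, from LOC102553891 (78.9) to Hoxd3 (74.4). Between them came LOC108351928, LOC102548111, the GTPase gene Rem2 (77.2), Rsrc1 (76.8), the polarity gene Llgl2 (75.9) and Csf1, macrophage colony-stimulating factor (75.4). All but that at LOC108351928 were also called in Myocd-LSD1 cells.

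Lost and gained peaks sometimes lay in uninterrupted runs. Of 6063 runs of lost peaks, 4559 were single peaks, while 386 had 3 or more neighbouring peaks and held 1372 peaks. Of 6879 gained runs, 5143 were single peaks, while 473 had 3 or more and held 1641 peaks. Whether runs were longer than scattered losses and gains would give was not tested. The longest lost run had 13 control peaks over 373.8 kb (chromosome 10, 54547974 to 54921795), 11 of them nearest to Ntn1, which encodes the guidance protein netrin 1. Their percentiles ran from 0.997 to 66.1, and Myocd-LSD1 cells shared 1 of them. Of 3 Ntn1 promoter peaks, those at percentiles 69.7 and 62.9 were lost, while the third was kept (42.3 in control, 66.4 in Myocd-LSD1NF cells). The peak at 62.9 began 0.088 kb downstream of the upstream start.

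The next run held every control peak of a gene. All 8 control peaks nearest to Rftn1, which encodes the lipid raft protein raftlin, were lost, within a run of 11 (chromosome 9, 12391632 to 12906322, 514.7 kb). The span held no peak in Myocd-LSD1NF or Myocd-LSD1 cells. The FLAG list had 11 peaks in the span, but only 1 of the 11 lost peaks overlapped a FLAG peak. The Rftn1 promoter peak of 1187 bp stood at percentile 68.6 and another Rftn1 peak at 74.3. Among 1855 genes with at least 5 control peaks, 5 lost all of them (0.270%, 0.0876 to 0.628), the others being Plce1, Mapk4, Pde9a and LOC108351804, a set chosen after their values were seen. Another run of 9 lost peaks (chromosome 9, 88872651 to 89643155) ran over Ccl20, Slc19a3, Daw1, Sphkap and LOC108351963, and Myocd-LSD1 cells had 6 of these. A run of 9 on chromosome 7 (20301297 to 22055978) held only LOC genes.

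At Inpp4b and Piezo2, gained runs were annotated to genes whose start site had lost the mark. The longest gained run had 9 peaks over 398.6 kb (chromosome 19, 29498054 to 29896677), 5 of them nearest to Inpp4b, an inositol phosphatase gene, and 4 to LOC100909612. No control peak lay in that span. The TSS peak of Inpp4b (chromosome 19, 30341155 to 30342324, 1170 bp) stood at percentile 89.5 in control, was lost in Myocd-LSD1NF cells and was present in Myocd-LSD1 cells at 82.8. Piezo2, a mechanically gated channel gene, had 7 of the 8 peaks of a gained run (chromosome 18, 58616591 to 59084919) annotated to it. That span held 3 control peaks, among them the lost TSS peak of Piezo2 (percentile 58.5). In a gained run of 8 peaks at Matn2 and Rpl30 (chromosome 7, 72995394 to 73215322) both promoters were kept. Most gained peaks of these runs were weak, from percentile 0.301 to 63.3.

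**Figure D4:**
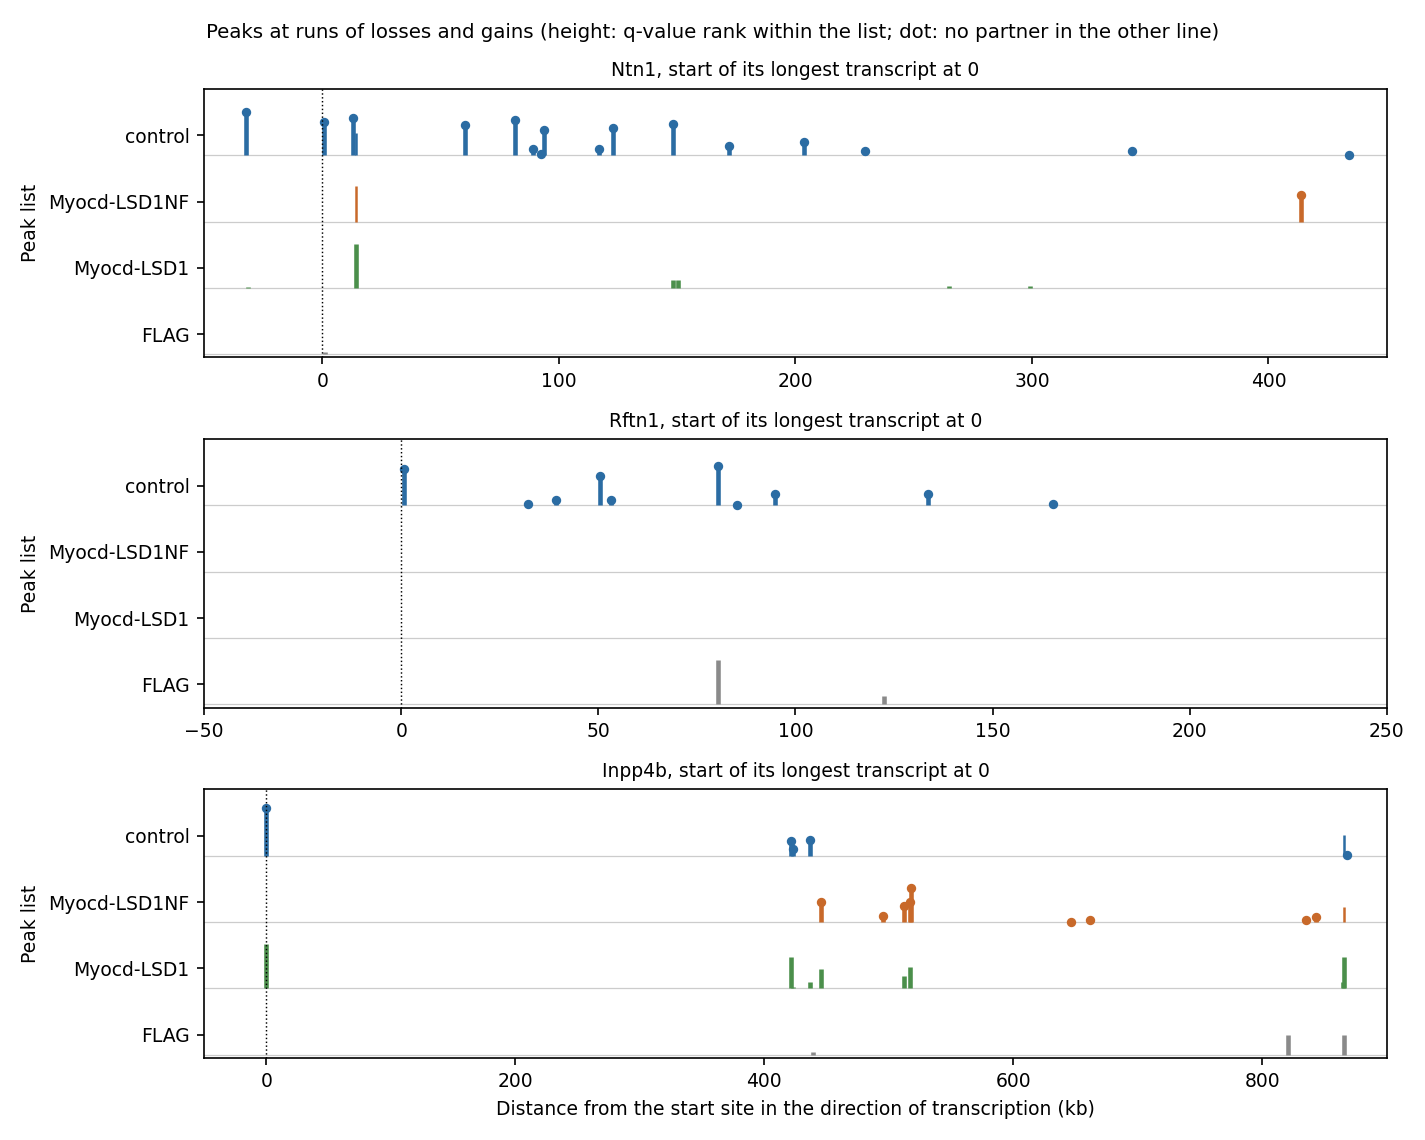
Peaks of the 4 lists by distance (kb, along transcription) from the start of the longest transcript of Ntn1, Rftn1 and Inpp4b; height is the q-value percentile within a list, and a dot marks a control or Myocd-LSD1NF peak without a partner in the other of these lists. Of the control peaks drawn, 16 of 17 at Ntn1, 10 of 10 at Rftn1 and 5 of 7 at Inpp4b lacked a partner, while 9 of 10 Myocd-LSD1NF peaks at Inpp4b did.

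Kept peaks were slightly wider in Myocd-LSD1NF cells. Over 31437 pairs with a single partner on each side, the ratio of Myocd-LSD1NF to control width had a median of 1.08 (quartiles 0.952 and 1.3), 1.06 at promoters and 1.11 elsewhere. In addition, 1366 Myocd-LSD1NF peaks spanned 2 or more control peaks, against 302 the other way. Among promoter peaks whose wider member had at least 800 bp, the largest narrowing was at Nrg2, neuregulin 2 (1765 to 246 bp), and at Fbln1, the matrix gene of fibulin 1 (1904 to 281 bp). Chrm3, a muscarinic receptor gene, went from 1411 to 333 bp. The largest widenings included Tmbim4 (231 to 1282 bp), Sox4 (220 to 1170 bp) and the interferon regulatory factor gene Irf2 (235 to 1230 bp).

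The Myocd-LSD1 list placed the differences further. Among lost peaks of the control list, 36.7% (35.7 to 37.8) met a peak in Myocd-LSD1 cells, against 88.9% (88.6 to 89.2) of kept ones. Gained peaks did so in 37.9% (37.0 to 38.9). For the upper 50% of the lists the shares rose to 60.7% of lost (n = 947) and 66.9% of gained peaks (n = 441), against 97.4% and 97.3% of kept peaks in the control and Myocd-LSD1NF lists. A majority of the stronger lost peaks were thus still called in Myocd-LSD1 cells, and a majority of the stronger gains were called in both fusion lines. At promoters, 51.2% of genes that lost and 47.4% of those that gained the mark carried it in Myocd-LSD1 cells.

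FLAG peaks of the Myocd-LSD1 fusion lay at few of the peaks that differed. They overlapped 8.79% of lost peaks (8.19 to 9.43), 13.1% of gained peaks (12.4 to 13.8) and 47.2% (46.7 to 47.7) of kept control peaks. In the upper 50% of the lists they overlapped 10.6% of lost and 27.2% of gained peaks, against 61.6% of kept control peaks. The FLAG samples come from the Myocd-LSD1 line, so they do not show where the Myocd-LSD1NF protein sits.

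The authors' deposited table of Myocd-LSD1 against Myocd-LSD1NF cells has the same Myocd-LSD1NF samples, so it is no separate check, but it rests on replicates. Lost control peaks overlapped a site higher in Myocd-LSD1 in 784 cases (9.58%) and a lower one in 1 case in the authors' deposited table, against 3.94% and 5.44% of kept control peaks. The share was 26.0% for the 3004 lost peaks that Myocd-LSD1 cells had. Higher sites of the authors' deposited table on lost control peaks had a median log2 difference of 3.22, with medians of 4.83 for Myocd-LSD1 against 1.48 for Myocd-LSD1NF. On kept control peaks, higher sites of the authors' deposited table differed by a median of 1.42 (6.49 and 4.93). Lost peaks were defined by the lack of a Myocd-LSD1NF peak, so low Myocd-LSD1NF values and few lower sites there follow from the definition. Of the 777 higher sites on lost peaks, 156 stood at the lowest Myocd-LSD1NF value, so the size of 3.22 is not exact. Over all strengths, gained peaks overlapped lower sites in 350 cases (3.75%) and higher ones in 92 (0.985%) in the authors' deposited table. Both shares were below those of kept Myocd-LSD1NF peaks (5.44% and 4.05%). For lower sites the order depended on strength. In the upper 50% of the Myocd-LSD1NF list, 24.5% of gained peaks (108 of 441) overlapped a lower site, against 6.45% of kept ones. In the lower 50% the shares were 2.72% and 3.75%. Higher sites were rarer at gained than at kept peaks in the upper 50% (0.907% against 3.03%) and in the lower 50% (0.989% against 5.77%). No such table compares control with Myocd-LSD1NF cells.

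**Figure D5:**
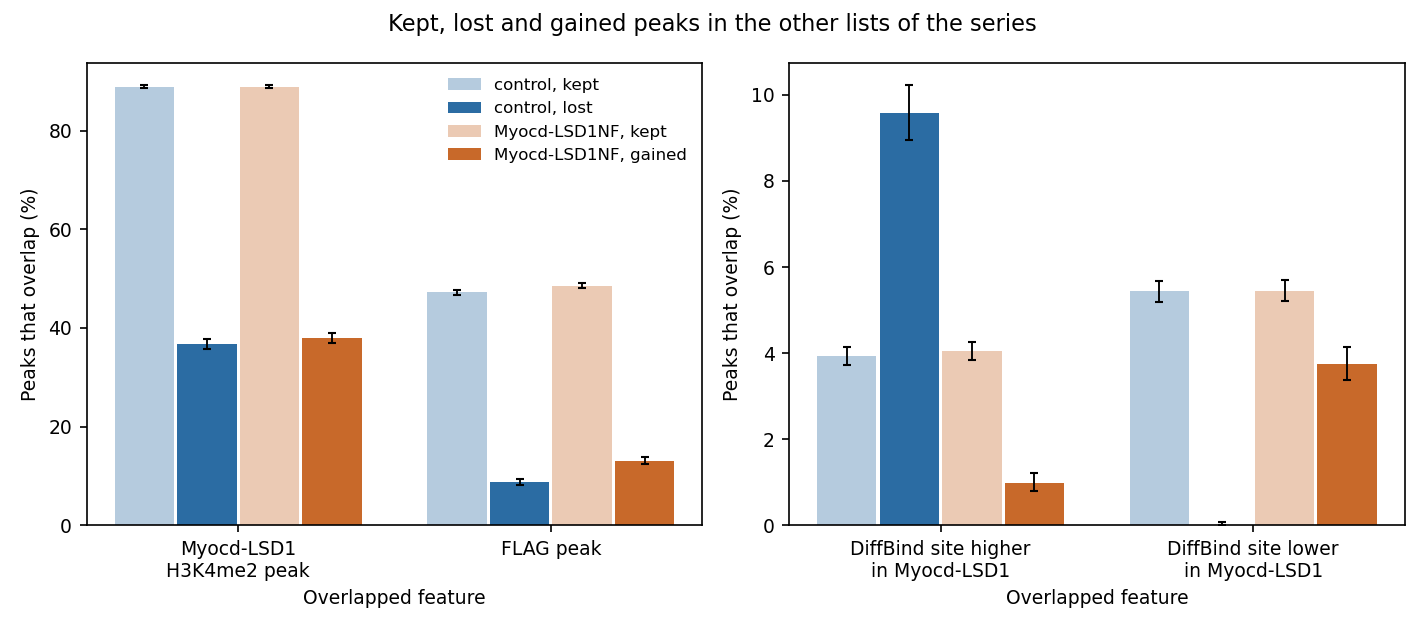
Share of kept, lost and gained peaks (percent, with exact 95% binomial intervals) that overlapped a Myocd-LSD1 H3K4me2 peak or a FLAG peak (left), or a site of the authors' deposited table that was higher or lower for Myocd-LSD1 (right). Lost peaks overlap higher sites in 9.58% and lower sites almost never, and gained peaks overlap lower sites in 3.75%, against 5.44% of kept ones. In the upper 50% of the Myocd-LSD1NF list, lower sites met 24.5% of gained and 6.45% of kept peaks. In the lower 50% they met 2.72% and 3.75%. The near absence of lower sites at lost peaks follows from how those peaks were defined.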

How the data were processed

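H3K4me2 CUT&Tag peak lists of control and Myocd-LSD1NF cells were compared, with the Myocd-LSD1 and FLAG lists and a DiffBind table for reference. Bowtie2, deepTools, MACS2, ChIPseeker, DiffBind and the build rn6 are named without versions or roles, per the submitters' processing notes. The authors deposited 1 peak list per group in MACS2 and ChIPseeker columns, per the file headers: a score, a fold enrichment over background (a ratio), and the −log10 q-value. The authors' deposited table gives, per site, log2 concentrations and their difference with its p-value and FDR. Its lowest concentrations are floors, so differences against them are given no size. Peak names carry a single alignment name per list; whether samples were pooled is not stated. Sources used here do not give duplicate removal or scaling, and depth is unknown.

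Starts were counted from 1, which gave the authors' distance for 100% of 10023 control peaks. Overlap meant at least 1 bp, a promoter 3 kb around any of 28870 TSSs named in the 4 lists. Fold, score and q-value were used only within their own list. A peak between neighbouring genes counts for both. Shares have exact (Clopper-Pearson) 95% intervals; no test was run. Overlap and promoter code was tested on simulated data.

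The comparison and the 21 gene lists (839 entries, 747 matched, 2 by synonym in the RefSeq table of GRCr8) were chosen with earlier results of these data known. Named genes are the 10 strongest lost and gained promoters, list members that changed (all of the contractile, regulator and striated muscle lists, up to 5 of others, the rest by name only; some members are not reported here), 6 SMC genes, the 8 strongest distal peaks and the 3 longest runs each way, ties included. Autosomes and X supplied names; 123 control and 133 Myocd-LSD1NF peaks lay elsewhere. Other genes were chosen after their values were seen: Csrp1, Foxc2, Gata6, Tbx18, Tubb5, Egr4, Eef2, Kdm5b, those with all peaks lost, and those with the largest width ratios. Promoter sequences are from RefSeq, GRCr8. Alternatives changed the overlap, the q-value limit, the promoter distance, the gene assignment and the list length. Software was matplotlib 3.10.9, pandas 2.3.3, Python 3.11.15, scipy 1.17.1 and numpy 2.4.6.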

Additional observations from a re-analysis of the deposited data

How the results depend on the processing

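No paired analysis was possible because each group has 1 peak list whose columns carry no replicate, and for the same reason no replicate could be left out. With the top 50% of each list set against the full other list, 947 peaks were lost and 441 gained, with promoter shares of 55.0% and 23.6%. With the Myocd-LSD1NF list cut to the covered length of the control list, 4499 peaks and 237 genes were gained. Counting a peak within 1 kb as kept gave promoter shares of 25.9% for lost and 12.4% for gained peaks, and promoters of 1 kb gave 19.9% and 10.0%. The share of lost peaks also lost in Myocd-LSD1 was 63.3%, 64.7% with 50% of the shorter peak overlapping and 61.8% within 1 kb. The share of gained peaks also in Myocd-LSD1 was 36.6% with 50% overlap. Within 1 kb, FLAG peaks met 14.2% of lost and 21.1% of gained peaks. Within 1 kb, sites of the authors' deposited table higher for Myocd-LSD1 met 10.7% of lost and 1.55% of gained peaks, and lower ones 0.635% and 4.62%. The cause of these shifts was not tested, beyond what each setting sets by construction. The other 25 alternative values of the main comparisons stayed within 1.5 times the count or within the interval of the share. Of 84 alternative counts for single gene lists, 15 moved by more, all with promoters narrowed to 1 kb. The unknown depth limits the weak peaks, where most losses and gains lie.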
